A study of Mus musculus with 15 samples.

Results

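The 10 genes described here write, maintain and remove 5-methylcytosine in DNA: *Dnmt1*, *Uhrf1* and *Uhrf2*, *Dnmt3a*, *Dnmt3b* and *Dnmt3l*, *Tet1*, *Tet2* and *Tet3*, and *Tdg*. They were chosen by name, as the core methyltransferases, their cofactors and the enzymes of active demethylation, and they are 10 of the 55536 genes in the count table. All 10 were among the 18090 genes that passed the filter on low counts. RNA-seq was made from 15 mouse samples with 3 replicates in each of 5 groups. All groups carried transgenes for *Nanog*, *Prdm1*, *Prdm14* and *Tfap2c* that Dox induces through the transactivator rtTA, in an ESC line with eGFP under the control of *Stella* (*Dppa3*). ESCs were naive embryonic stem cells kept in N2B27 with 1 µM PD0325901, 3 µM CHIR99021 and 1000 U/ml LIF. EpiLCs were epiblast-like cells after 48 h with 20 ng/ml Activin A, 12 ng/ml bFGF and 1% KSR. PGCLCs were primordial germ cell-like cells grown as aggregates of EpiLCs in GK15 medium (15% KSR) with 2 µg/ml Dox and collected as Stella-eGFP+ cells on days 2, 4 and 6 (D2PGCLCs, D4PGCLCs and D6PGCLCs). The transgenic cells were isolated as clonal lines, the sort kept the cells with an active *Dppa3* reporter, and ESCs and EpiLCs had no such sort. None of the 10 genes is a transgene. In bulk RNA, fewer cells of a type and less RNA per cell cannot be told apart.

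Methylation of CpG sites is copied onto the new strand after replication by DNMT1, which UHRF1 brings to hemimethylated DNA. New methylation is set by DNMT3A and DNMT3B, which the catalytically inactive DNMT3L stimulates. TET dioxygenases oxidise 5-methylcytosine, and the glycosylase TDG excises the oxidised bases for repair. Naive ESCs in 2i medium are known for low genomic methylation, formative epiblast cells for a wave of new methylation, and primordial germ cells for its erasure.

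The promoters of the 4 genes that moved most between these states are shown because they differ in CpG content, the substrate of the enzymes themselves. The sequences are RefSeq windows on GRCm38.p6 of 250 bases before to 50 bases after an annotated start, 5′ to 3′ along the gene, with CpG sites in capitals. *Dnmt3b* (chromosome 2, start window at chr2:153649199-153649498, + strand), *Dnmt3a* from its upstream start (chr12:3806730-3807029, +) and from its internal start (chr12:3891494-3891793, +), *Dnmt3l* from its first start (chr10:78042037-78042336, +) and *Tet2* (chr3:133544341-133544640, - strand) read:
Dnmt3b: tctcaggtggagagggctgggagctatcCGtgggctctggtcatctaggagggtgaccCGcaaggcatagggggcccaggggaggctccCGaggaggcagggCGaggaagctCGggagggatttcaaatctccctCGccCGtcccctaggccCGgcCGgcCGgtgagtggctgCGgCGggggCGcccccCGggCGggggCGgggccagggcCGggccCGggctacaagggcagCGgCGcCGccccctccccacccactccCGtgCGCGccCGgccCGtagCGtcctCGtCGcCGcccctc
Dnmt3a upstream start: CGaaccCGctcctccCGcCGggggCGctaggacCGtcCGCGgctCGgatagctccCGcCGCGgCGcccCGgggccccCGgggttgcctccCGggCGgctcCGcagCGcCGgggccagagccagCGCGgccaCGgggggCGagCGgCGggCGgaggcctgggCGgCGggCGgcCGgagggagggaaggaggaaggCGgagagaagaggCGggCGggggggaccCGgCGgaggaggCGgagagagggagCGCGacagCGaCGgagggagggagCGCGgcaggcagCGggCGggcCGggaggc
Dnmt3a internal start: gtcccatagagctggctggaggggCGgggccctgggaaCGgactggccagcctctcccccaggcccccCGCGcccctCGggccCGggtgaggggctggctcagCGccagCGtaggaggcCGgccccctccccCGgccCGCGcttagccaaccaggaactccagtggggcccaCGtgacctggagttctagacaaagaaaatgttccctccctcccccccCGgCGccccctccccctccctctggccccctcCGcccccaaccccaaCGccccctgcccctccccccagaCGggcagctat
Dnmt3l: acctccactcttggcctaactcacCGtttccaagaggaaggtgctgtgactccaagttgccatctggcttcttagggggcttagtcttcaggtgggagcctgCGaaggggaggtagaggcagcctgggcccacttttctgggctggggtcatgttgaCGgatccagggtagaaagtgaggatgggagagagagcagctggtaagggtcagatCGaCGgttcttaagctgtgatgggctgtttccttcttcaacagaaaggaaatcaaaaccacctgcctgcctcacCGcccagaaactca
Tet2: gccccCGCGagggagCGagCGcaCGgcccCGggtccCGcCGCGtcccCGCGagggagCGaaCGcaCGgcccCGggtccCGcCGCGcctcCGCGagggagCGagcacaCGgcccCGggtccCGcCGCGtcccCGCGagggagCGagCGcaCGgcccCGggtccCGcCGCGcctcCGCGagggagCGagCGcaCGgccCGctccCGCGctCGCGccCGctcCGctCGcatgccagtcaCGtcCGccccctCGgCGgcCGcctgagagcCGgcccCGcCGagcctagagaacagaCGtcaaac

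The *Tet2* window held 57 CpG sites, more than 99.8% of the 32851 mouse promoter windows in the same table. The upstream *Dnmt3a* window held 46 and the internal one 18, and the *Dnmt3b* window held 30. The *Dnmt3l* window held 6 CpG sites, below the median of 7 over all windows. *Dnmt3a* and *Dnmt3l* each had 3 start windows, not all of them printed. Start 2 of *Dnmt3a* overlaps the upstream window and held 47 CpG sites, and starts 2 and 3 of *Dnmt3l* held 4 and 3. Counts per gene pool the transcripts from all starts of a gene. The upstream and internal *Dnmt3a* starts encode a long and a short protein. Each window was also searched on both strands for a GC box (GGGCGG), an AP-2 site (GCCNNNGGC), a PRDM1 core (GAAAGTG), an E-box (CACGTG), a bicoid-type site (TAATCC), an octamer (ATGCAAAT) and an E2F core (TTCCCGC), where 1 base could count for several motifs. GC boxes occurred 4 times in the *Dnmt3b* window, 6 times in the upstream and 2 times in the internal *Dnmt3a* window and 1 time each in the *Dnmt3l* and *Tet2* windows, and 35.7% of all windows held at least 1. The upstream *Dnmt3a* window had 1 AP-2 site (16.6% of all windows), the internal *Dnmt3a* window 1 E-box (7.15%) and the *Dnmt3l* window 1 PRDM1 core (4.81%). AP-2 sites and E-boxes also lay in windows that are not printed. The *Tdg* window had 2 AP-2 sites and 1 E-box. Start 1 of *Dnmt1* and start 2 of *Dnmt3a* had 1 AP-2 site each, and start 2 of *Dnmt3l* had 1 E-box. The windows of *Uhrf1* and *Tdg* held the 1 E2F core and the 1 bicoid-type site found among the 10 genes (4.6% and 7.06% of all windows), and none held the octamer (1.73%). These are matches of letters and were not tested as binding sites.

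Depth ranged from 22555021 to 42725681 counts per sample, and the smallest count of any member in any sample was 213, for *Tet3* in D2PGCLCs. D6PGCLC replicate 1 stood apart in the low counts, with 796 genes at 1 to 5 counts against 4517 to 5974 in the 14 other samples, so calls on D6PGCLCs that changed without it are named. Summed markers fitted the labels. *Fgf5*, *Otx2*, *Pou3f1* and *Sox3* summed to 356 to 378 CPM in EpiLCs and at most 20.0 CPM in the other groups. A list of 7 naive ESC genes summed to 2430 to 2453 CPM in ESCs and 393 to 397 in EpiLCs. These 7 did not mark ESCs alone, with 1351 to 1547 CPM on day 2, 1272 to 1483 on day 4 and 1121 to 1274 on day 6. The 8 early germ cell genes, 4 of them transgenes and 1 the sorted reporter's gene, summed to 1599 to 1939 CPM in PGCLCs and at most 922 elsewhere. Not each gene followed the sum. *Prdm14* had mean levels of 96.4 CPM in EpiLCs and 93.4, 90.15 and 71.65 on days 2, 4 and 6. *Prdm1* had 71.6 CPM in EpiLCs and 106, 94.5 and 59.6 on those days. *Dppa3*, *Tfap2c*, *Itgb3*, *Dnd1*, *Nanos3* and *Nanog* had higher means on each day than in ESCs and EpiLCs, *Nanog* by little on day 6 (735 against 691 CPM in ESCs). Markers of other cell types were low: 7 fibroblast genes summed to at most 25.1 CPM in EpiLCs and 8.41 elsewhere, and endoderm, mesoderm and neuroectoderm lists to at most 18.2 CPM in any sample. Those sums were higher in D6PGCLCs (endoderm 9.03 to 16.9) than in D2PGCLCs (0.690 to 1.15), and their part in the results was not tested. *Sox17* and the other 3 endoderm genes and all 4 mesoderm genes had counts in each group, 1 to 3 of the 7 fibroblast genes were at 0 in every sample of a group, and 1 of the 3 neuroectoderm genes was at 0 in every sample outside D6PGCLCs. Levels below are TMM-normalized CPM, changes are log2 fold changes of edgeR's quasi-likelihood fit of all 15 samples with Benjamini-Hochberg adjustment over 18090 genes, and "rose" and "fell" mark an adjusted p under 0.05.

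**Figure D1:**
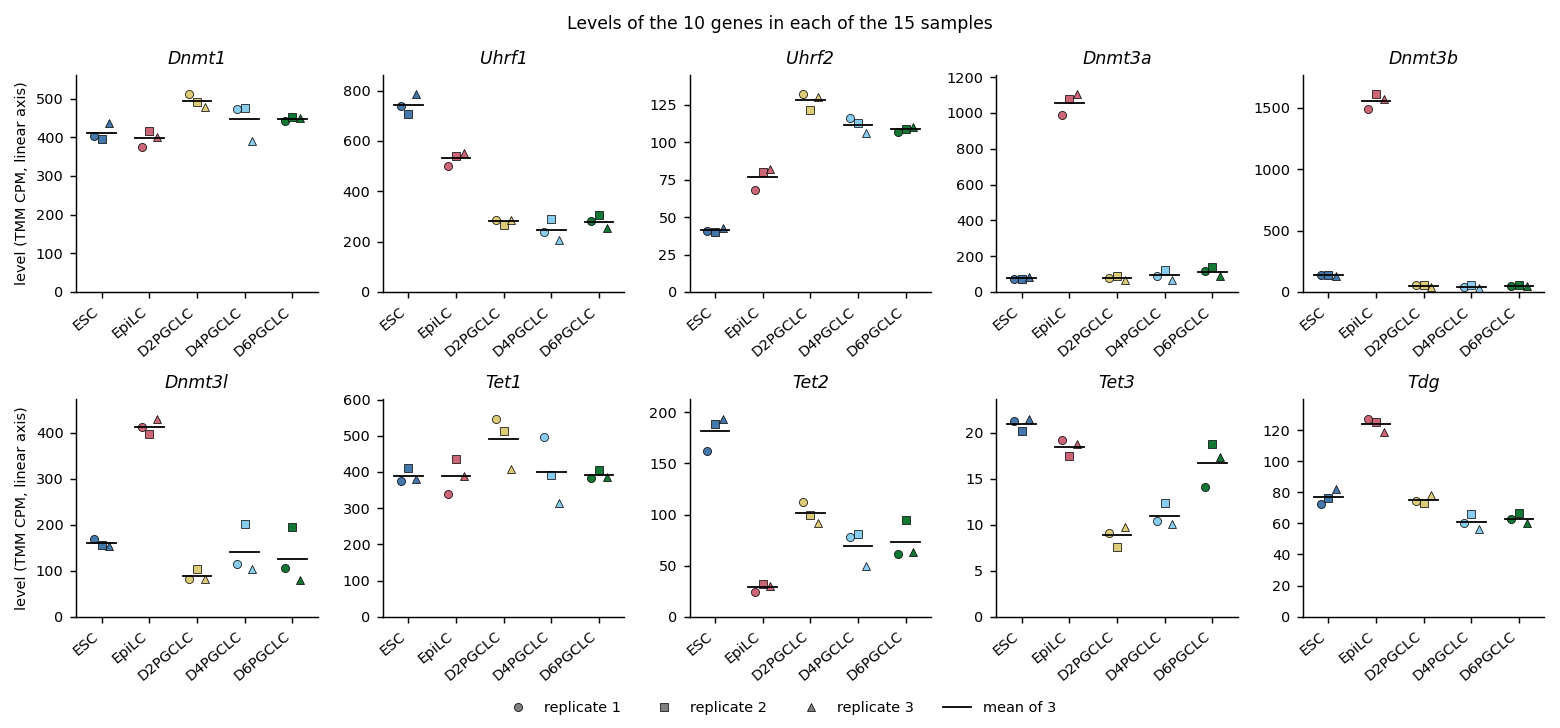
Level of each gene (TMM CPM, linear axes from 0) in the 15 samples, by group; symbols mark the replicate and black lines the mean of 3. *Dnmt3a*, *Dnmt3b*, *Dnmt3l* and *Tdg* stand highest in the 3 EpiLC samples, *Tet2* lowest there, and *Uhrf1* and *Uhrf2* run in opposite directions.

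*Dnmt1* (ENSMUSG00000004099, chr9:20907209-20959888, - strand), the maintenance methyltransferase, varied least of the 3. It had 404, 396 and 436.5 CPM in ESCs, 375.5, 417 and 400.2 in EpiLCs, 511, 490.5 and 477.5 in D2PGCLCs, 473, 476 and 392 in D4PGCLCs and 441, 451 and 451 in D6PGCLCs (replicates 1 to 3). The D2PGCLC samples were the highest and shared no value with any other group, and the other groups overlapped with their neighbours in the order. It rose only from EpiLCs to D2PGCLCs among the 6 comparisons, by 0.31 (SE 0.08, adjusted p = 0.00291).

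*Uhrf1* (ENSMUSG00000001228, chr17:56303321-56323486, + strand), the hemimethylated-DNA reader that recruits DNMT1, fell in 2 steps. ESCs had 740.3, 708 and 785 CPM and EpiLCs 499.9, 538 and 553. D2PGCLCs had 287, 267 and 287 CPM, D4PGCLCs 239, 292 and 205, and D6PGCLCs 279.9, 304 and 254. Every ESC sample lay above every EpiLC sample and every EpiLC sample above every PGCLC sample, while the 3 PGCLC days overlapped. The change was -0.49 from ESCs to EpiLCs (SE 0.10, adjusted p = 0.00055) and -0.92 from EpiLCs to D2PGCLCs (SE 0.10, adjusted p = 5.1e-07).

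*Uhrf2* (ENSMUSG00000024817, chr19:30030513-30093722, + strand), the paralog of *Uhrf1* that does not replace it in DNA methylation maintenance in ESCs, moved the other way over the same samples. It had 40.8, 40.3 and 42.6 CPM in ESCs, 68.4, 80.0 and 82.0 in EpiLCs, 132, 122 and 130.4 in D2PGCLCs, 116.5, 113 and 106 in D4PGCLCs and 107, 109 and 110.2 in D6PGCLCs. ESCs, EpiLCs and D2PGCLCs did not overlap. The gene rose by 0.90 (SE 0.08, adjusted p = 2.03e-08) and then by 0.74 (SE 0.08, adjusted p = 2.3e-07), and it fell by 0.23 from D2PGCLCs to D6PGCLCs (SE 0.08, adjusted p = 0.0222). The last call was lost without D6PGCLC replicate 1 (adjusted p = 0.0692 in the same edgeR test) and also without D2PGCLC replicate 1 or 3.

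Ratios between these genes were computed within each sample and were not tested. Per kilobase of exon, *Uhrf1* stood at 3.13 ± 0.0383 times the level of *Dnmt1* in ESCs (SD, n = 3), 2.31 ± 0.0799 in EpiLCs and 0.986 ± 0.0505 in D2PGCLCs. In D4PGCLCs and D6PGCLCs the ratio was 0.948 ± 0.0992 and 1.08 ± 0.0974. The ratio of *Uhrf1* to *Uhrf2* levels per kilobase was 36.4 ± 0.902 in ESCs, 14.0 ± 0.668 in EpiLCs and 4.42 ± 0.0332 in D2PGCLCs. The sizes of these ratios depend on the length used. Divided by the longest transcript, *Uhrf1* per *Uhrf2* was 17.8, 6.83 and 2.16 in these 3 groups. By counts without division by length, *Uhrf1* per *Dnmt1* was 1.81 in ESCs, 1.33 in EpiLCs and 0.547 to 0.624 in PGCLCs.

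The de novo enzymes formed the steepest pattern of the 10 genes. *Dnmt3a* (ENSMUSG00000020661, chr12:3806007-3914443, + strand) had 74.5, 71.5 and 83.2 CPM in ESCs and 991, 1075 and 1104 in EpiLCs. In D2PGCLCs it was back at 80.6, 89.8 and 66.9 CPM, with 90.6, 125 and 68.3 in D4PGCLCs and 117, 137 and 87.1 in D6PGCLCs. The EpiLC samples stood far above all others, and neighbouring groups among the other 4 overlapped. *Dnmt3a* rose 13.8-fold from ESCs to EpiLCs (log2 fold change 3.79, SE 0.19, adjusted p = 8.54e-12) and fell 13.4-fold to D2PGCLCs (log2 fold change -3.74, SE 0.19, adjusted p = 1.4e-11).

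*Dnmt3b* (ENSMUSG00000027478, chr2:153649450-153687730, + strand) had 136, 137 and 130.3 CPM in ESCs and 1489, 1611 and 1576 in EpiLCs. In D2PGCLCs it had 56.0, 54.1 and 41.8 CPM, in D4PGCLCs 43.1, 53.8 and 31.8, and in D6PGCLCs 46.35, 53.4 and 45.9. Unlike *Dnmt3a*, it ended below the naive level, with every PGCLC sample under every ESC sample. It rose 11.6-fold into EpiLCs and fell 30.8-fold to D2PGCLCs (log2 fold change -4.94, SE 0.16, adjusted p = 4.18e-14), the largest change of any of the 10 genes in the 6 comparisons. The *Dnmt3b* level per *Dnmt3a* level, both per kilobase, was 5.76 ± 0.594 in ESCs and 4.81 ± 0.139 in EpiLCs (SD, n = 3). On days 2, 4 and 6 it was 2.09 ± 0.158, 1.49 ± 0.0773 and 1.43 ± 0.252. Whether *Dnmt3b* exceeded *Dnmt3a* in PGCLCs turned with the length used: the ratio on those days was 1.44, 1.02 and 0.982 by the longest transcript and 0.641, 0.457 and 0.438 by counts without division by length.

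*Dnmt3l* (ENSMUSG00000000730, chr10:78041947-78063622, + strand), the inactive cofactor, had 168.5, 156 and 154 CPM in ESCs and 413, 398 and 430.1 in EpiLCs. D2PGCLCs had 82.0, 103 and 82.4 CPM, D4PGCLCs 114, 203 and 103, and D6PGCLCs 105, 194 and 80.0. It rose 2.59-fold into EpiLCs (log2 fold change 1.38, SE 0.25, adjusted p = 0.000128) and fell 4.64-fold to D2PGCLCs (log2 fold change -2.21, SE 0.26, adjusted p = 7.12e-07). Replicate 2 of D4PGCLCs and of D6PGCLCs stood well above its 2 partners, and the coefficient of variation was 38.9% and 47.4% there against 3.88% to 13.5% in the other groups. From D2PGCLCs to D4PGCLCs the groups did not overlap but the change of 0.65 was not called (95% confidence interval 0.13 to 1.17, adjusted p = 0.0948), and a fit blocked on replicate number called it (0.61, adjusted p = 0.0437), as did the edgeR fit with no filter on low counts (0.66, adjusted p = 1.76e-09). That fit also called *Dnmt3l* from D2PGCLCs to D6PGCLCs (adjusted p = 1.8e-06) and from ESCs to D6PGCLCs (adjusted p = 0.00323). Its SE for *Dnmt3l* from D2PGCLCs to D4PGCLCs was 0.096, against 0.25 in the main fit. This SE was close to the 0.091 it gave for *Tet1*. The no-filter p-values thus rest on an SE that does not follow the wide spread of *Dnmt3l*, and they are not read as firmer calls. The change from D2PGCLCs to D4PGCLCs was 0.29 without D4PGCLC replicate 2. D6PGCLCs against ESCs gave -0.33 (95% confidence interval -0.85 to 0.18), and -0.79 without D6PGCLC replicate 2 (adjusted p = 0.00352 in edgeR's quasi-likelihood test).

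*Aire*, a regulator of antigen expression in the thymus, shares 67 exonic bases with *Dnmt3l* on the opposite strand. It had 10.5, 29.3 and 6.39 CPM in D2PGCLCs, 27.0, 75.4 and 11.1 in D4PGCLCs and 19.7, 79.6 and 9.95 in D6PGCLCs, so replicate 2 was also the highest for *Aire* on each day. In ESCs and EpiLCs *Aire* lay between 38.6 and 67.3 CPM. Replicate 1 was the highest for both genes in ESCs. In EpiLCs replicate 2 was the highest for *Aire* (67.35 CPM against 38.6 and 61.4) but the lowest for *Dnmt3l* (398 against 413 and 430). Library strand was kept by the kit, but whether counting used it is not given in the sources used here, and the part of the shared bases in the *Dnmt3l* values was not tested.

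**Figure D2:**
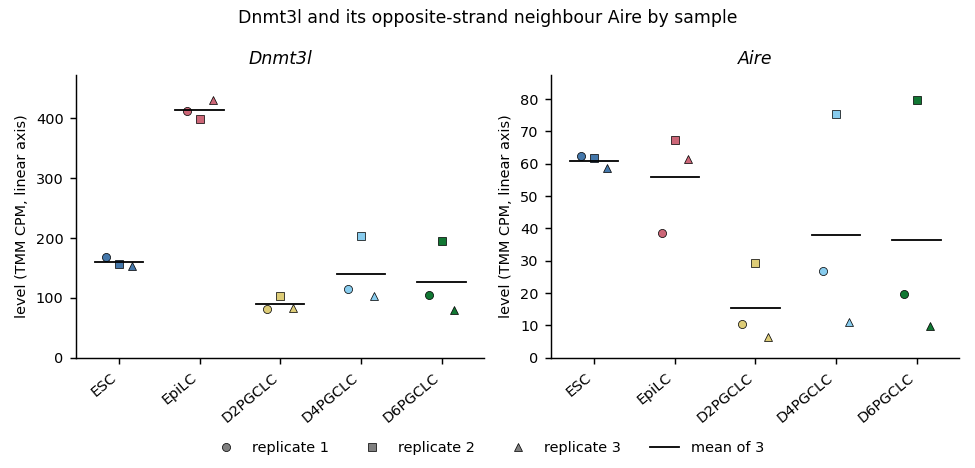
Levels of *Dnmt3l* (left) and of *Aire*, which overlaps it on the opposite strand (right), in TMM CPM on linear axes from 0; symbols mark the replicate and black lines the mean of 3. Replicate 2 (squares) is the highest of its group for both genes on days 2, 4 and 6.

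Within a sample, *Dnmt3a* and *Dnmt3b* together made up 35.6% ± 1.43 of the summed *Dnmt1*, *Dnmt3a* and *Dnmt3b* levels per kilobase in ESCs and 87.3% ± 0.171 in EpiLCs (SD, n = 3). On days 2, 4 and 6 of induction the share was 17.9% ± 1.85, 18.6% ± 2.86 and 21.2% ± 2.25. No PGCLC sample exceeded 23.4% and no ESC sample was under 34.0%. The summed level of the 3 genes was 423 ± 18.2 CPM per kilobase in EpiLCs, and between 74.7 ± 10.0 and 86.8 ± 2.57 in the other groups.

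**Figure D3:**
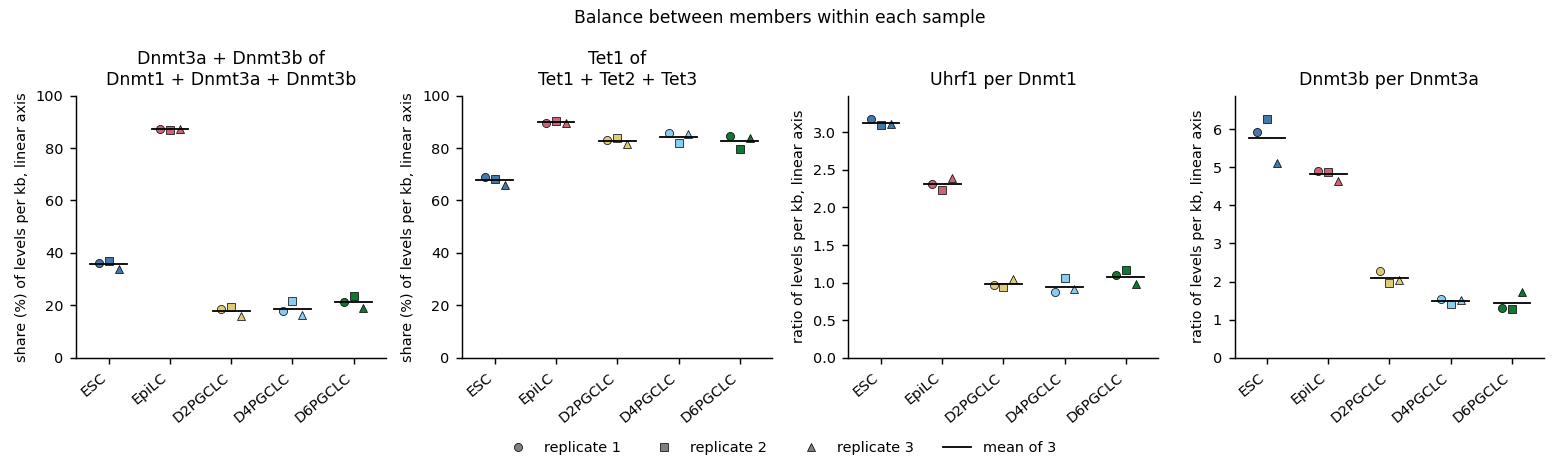
Balance of members within each sample, from levels per kilobase of exon on linear axes from 0: share of *Dnmt3a* and *Dnmt3b* among the catalytic methyltransferase genes, share of *Tet1* among the TET genes, *Uhrf1* per *Dnmt1* and *Dnmt3b* per *Dnmt3a*. Symbols mark the replicate and black lines the mean of 3; the de novo share is 87.3% in EpiLCs and 17.9% to 21.2% in PGCLCs, and *Uhrf1* per *Dnmt1* goes from 3.13 in ESCs to about 1 (0.948 to 1.08) in PGCLCs.

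Among the erasers, *Tet1* (ENSMUSG00000047146, chr10:62804570-62908996, - strand), the dioxygenase known as the main TET enzyme of pluripotent cells, stayed between 315 and 546 CPM in all 15 samples. It had 375, 409.7 and 379 CPM in ESCs, 338, 437 and 389 in EpiLCs, 546, 514 and 409 in D2PGCLCs, 497, 391 and 315 in D4PGCLCs and 382, 404 and 386 in D6PGCLCs. Every neighbouring pair in the order of levels overlapped. The ESC to EpiLC change was -0.0002 with a 95% confidence interval of -0.28 to 0.28. It rose by 0.34 from EpiLCs to D2PGCLCs (SE 0.13, adjusted p = 0.0405), a call that was lost in DESeq2 (adjusted p = 0.0768) and without any 1 of 4 of the 6 samples.

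*Tet2* (ENSMUSG00000040943, chr3:133463679-133545139, - strand) moved against the de novo enzymes into and out of EpiLCs. ESCs had 162, 189 and 193 CPM and EpiLCs 23.7, 32.5 and 29.9. It was at 113, 99.5 and 91.6 CPM in D2PGCLCs, 78.5, 80.6 and 49.5 in D4PGCLCs and 61.8, 94.35 and 63.3 in D6PGCLCs. The EpiLC samples were the lowest and the ESC samples the highest, without overlap with any other group. *Tet2* fell 6.32-fold into EpiLCs (log2 fold change -2.66, SE 0.19, adjusted p = 7.16e-10) and rose 3.52-fold to D2PGCLCs (log2 fold change 1.82, SE 0.18, adjusted p = 1.1e-07). The decrease to D4PGCLCs was near the threshold (-0.54, SE 0.17, adjusted p = 0.0486), and it was lost without any 1 of 4 of the 6 samples.

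*Tet3* (ENSMUSG00000034832, chr6:83362373-83459084, - strand), the TET enzyme known from the zygote, had the lowest level per kilobase of the 10 genes in all 5 groups. Its CPM were 21.4, 20.2 and 21.5 in ESCs, 19.25, 17.5 and 18.8 in EpiLCs, 9.16, 7.63 and 9.75 in D2PGCLCs, 10.5, 12.4 and 10.1 in D4PGCLCs and 14.1, 18.8 and 17.4 in D6PGCLCs. The D2PGCLC samples were the lowest and did not overlap with any other group. *Tet3* fell 2.09-fold from EpiLCs to D2PGCLCs (log2 fold change -1.06, SE 0.14, adjusted p = 2.63e-06). It was the 1 member called between D4PGCLCs and D6PGCLCs, where it rose by 0.61 (SE 0.13, adjusted p = 0.00618), and it rose 1.89-fold from D2PGCLCs to D6PGCLCs (adjusted p = 4.02e-05, edgeR's quasi-likelihood test). Without D6PGCLC replicate 1 these changes were 0.72 and 1.03 and kept their calls.

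*Tdg* (ENSMUSG00000034674, chr10:82629828-82650799, + strand), the glycosylase acting after the TET enzymes, followed the de novo enzymes with a smaller range. It had 72.25, 76.4 and 82.4 CPM in ESCs, 127, 125 and 118.5 in EpiLCs, 74.5, 73.1 and 78.2 in D2PGCLCs, 60.5, 66.2 and 56.2 in D4PGCLCs and 62.7, 66.5 and 60.2 in D6PGCLCs. The EpiLC samples were all above the rest, and ESCs and D2PGCLCs overlapped. *Tdg* rose by 0.68 into EpiLCs (SE 0.08, adjusted p = 7.78e-07), fell by 0.72 to D2PGCLCs (SE 0.08, adjusted p = 4.38e-07) and fell by 0.30 from D2PGCLCs to D4PGCLCs (SE 0.08, adjusted p = 0.0183). Reads of *Glt8d2*, which shares 367 exonic bases with *Tdg* on the opposite strand, numbered at most 31 in any sample against at least 1742 for *Tdg*.

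*Tet1* made up 67.6% ± 1.64 of the 3 TET levels per kilobase in ESCs, 89.9% ± 0.521 in EpiLCs and 82.8% ± 1.25, 84.4% ± 2.02 and 82.7% ± 2.73 on days 2, 4 and 6 (SD, n = 3). Its level per *Tet2* level was 2.34 ± 0.190 for ESCs, 14.8 ± 0.681 for EpiLCs and 5.27 ± 0.382 for D2PGCLCs, and 1.37, 8.67 and 3.08 by the longest transcript. The summed TET level was 37.1 ± 1.88 CPM per kilobase in ESCs, 27.9 ± 3.41 in EpiLCs and 38.2 ± 5.18 in D2PGCLCs.

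The first comparison asks how these genes differ once cells leave the naive state. From ESCs to EpiLCs, 5 of 10 members rose (*Dnmt3a*, *Dnmt3b*, *Dnmt3l*, *Uhrf2* and *Tdg*), against 26.3% of all genes tested, and 2 fell (*Uhrf1* and *Tet2*), against 26.2%. Changes beyond 2-fold were called for 4 members, against 26.2% of all genes in either direction. The groups did not overlap for 8 members, against 63.5% of all genes tested. *Dnmt1*, *Tet1* and *Tet3* were not called, with changes of -0.05 (95% confidence interval -0.22 to 0.11), -0.0002 and -0.18 (-0.46 to 0.09). Median log2 fold changes were 0.34 over the members and -0.0065 over all genes tested.

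The next comparison asks what changes over the first 2 days of induction by the transgenes. From EpiLCs to D2PGCLCs all 10 members were called: 4 rose (*Dnmt1*, *Uhrf2*, *Tet1* and *Tet2*; 27.2% of all genes did) and 6 fell (*Dnmt3a*, *Dnmt3b*, *Dnmt3l*, *Uhrf1*, *Tet3* and *Tdg*; 26.0% of all genes did). Beyond 2-fold, 5 members were called, against 25.4% of all genes. The median was -0.82 over the members and 0.00335 over all genes. This comparison and the previous one share the EpiLC samples. The sort for Stella-eGFP+ cells, the medium, the aggregates and Dox all entered between these groups and cannot be told apart.

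Later steps held few calls. From D2PGCLCs to D4PGCLCs no member rose, against 7.26% of all genes, 2 fell (*Tet2* and *Tdg*), against 4.60%, and none passed 2-fold, against 2.94%. At an unadjusted p under 0.05, the count was 6 members, against 26.2% of all genes, and both calls were lost without D2PGCLC replicate 1, without D2PGCLC replicate 3 or without D4PGCLC replicate 3. Confidence intervals of the uncalled members lay between -0.57 and 1.17. From D4PGCLCs to D6PGCLCs *Tet3* rose, against 6.03% of all genes, no member fell, against 6.82%, and none passed 2-fold, against 3.08%; the intervals of the 9 others lay between -0.66 and 0.63.

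Over the whole PGCLC series, from D2PGCLCs to D6PGCLCs, 2 members rose (*Dnmt3a* by 0.52 and *Tet3* by 0.92), against 19.5% of all genes. *Uhrf2* (-0.23), *Tet2* (-0.47) and *Tdg* (-0.25) fell, against 18.2%, and no change passed 2-fold, against 13.6%. Without D6PGCLC replicate 1 only the call for *Tet3* was kept, and the adjusted p of the other 4 was then 0.0504 to 0.162 in edgeR's quasi-likelihood test. Leaving out D2PGCLC replicate 1 kept 2 of the 5 calls and leaving out D2PGCLC replicate 3 also kept 2 (*Tet2* and *Tet3*) and added *Tet1*.

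The last comparison sets the end of the series against the naive start. From ESCs to D6PGCLCs, 2 members rose, *Uhrf2* 2.64-fold (log2 fold change 1.40, SE 0.08, adjusted p = 5.59e-11) and *Dnmt3a* 1.49-fold (log2 fold change 0.57, SE 0.17, adjusted p = 0.00951), against 27.7% of all genes. The 5 that fell, against 26.0%, were *Dnmt3b* 2.77-fold, *Uhrf1* 2.67-fold, *Tet2* 2.48-fold, *Tet3* 1.255-fold and *Tdg* 1.22-fold. *Dnmt3b*, *Uhrf1*, *Tet2* and *Uhrf2* passed 2-fold, against 26.2% of all genes. *Dnmt1* (0.12, 95% confidence interval -0.05 to 0.29), *Tet1* (0.01, -0.27 to 0.29) and *Dnmt3l* were not called. Without D6PGCLC replicate 1, 6 of the 7 calls were kept and *Tet3* was lost (-0.20, adjusted p = 0.236 in edgeR's quasi-likelihood test). The *Tet3* call was also lost without any of the ESC replicates or D6PGCLC replicate 3, with no filter on low counts and with only the 2 groups compared, and *Dnmt3a* was lost without D6PGCLC replicate 2 (adjusted p = 0.0639 in the same test).

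**Figure D4:**
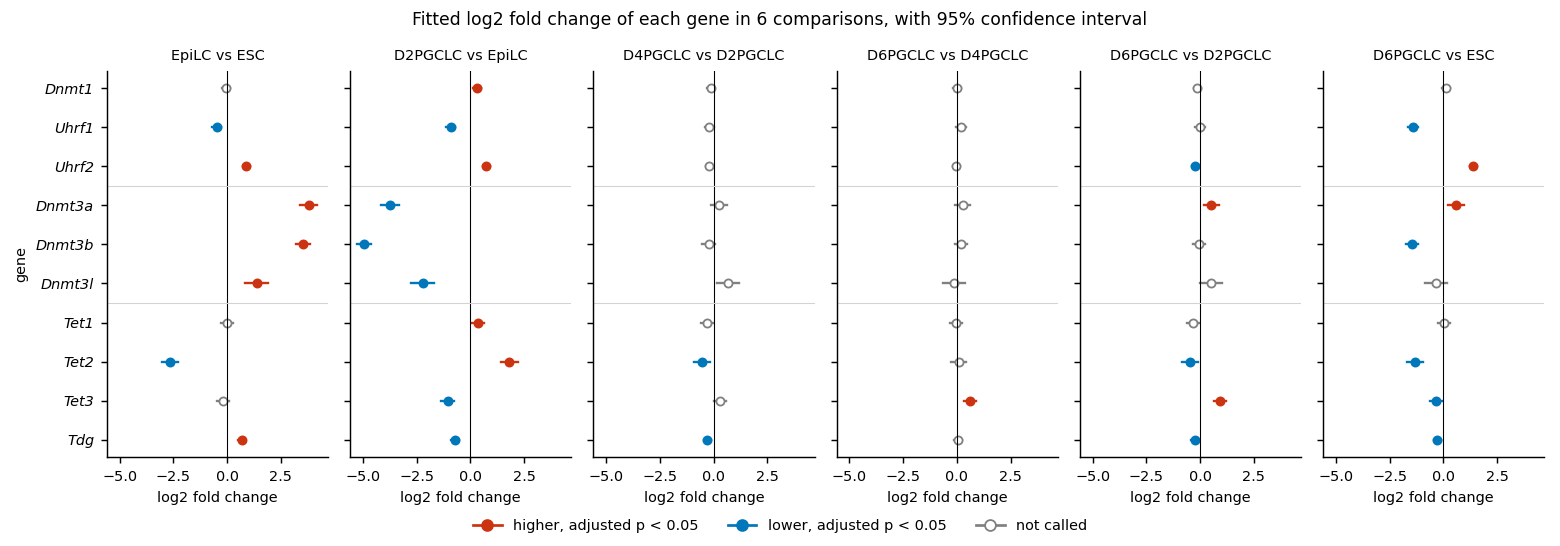
Fitted log2 fold change (x axes, first group named minus second) of each gene with its 95% confidence interval in the 6 comparisons; red and blue mark higher and lower at adjusted p under 0.05 and open grey not called. The widest changes are those of *Dnmt3a* and *Dnmt3b* into and out of EpiLCs, and D4PGCLCs against D2PGCLCs and D6PGCLCs against D4PGCLCs hold 2 calls and 1.

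Some samples stood at one end of their group for most of the 10 genes. D4PGCLC replicate 3 was the lowest of its group for 10 of 10 members and for 34.3% of all genes tested. D6PGCLC replicate 2 was the highest of its group for 9 of 10 members and for 36.2% of all genes tested, and D4PGCLC replicate 2 for 8 of 10 and 32.6%. ESC replicate 3 was the highest for 7 members and for 33.45% of all genes tested. EpiLC replicate 1 was the lowest for 7 members and for 38.19% of all genes tested. Total counts of replicates 1 to 3 were 32146690, 33311717 and 34245229 in D4PGCLCs and 34476646, 42725681 and 32530096 in D6PGCLCs. The cause was not tested.

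Levels per kilobase order the 10 genes within each state. In ESCs *Uhrf1* was first at 175 ± 9.11 CPM per kilobase, followed by *Dnmt1* at 55.9 ± 2.91 and *Dnmt3l* at 53.4 ± 2.64, whose spreads overlap. In EpiLCs *Dnmt3b* was first at 305 ± 12.3, followed by *Dnmt3l* at 138 ± 5.37 and *Uhrf1* at 125 ± 6.47. In D2PGCLCs *Dnmt1* (66.8 ± 2.30) and *Uhrf1* (65.9 ± 2.69) led within their spread, and *Dnmt3b* had gone to 9.92 ± 1.51. *Dnmt3a* and *Dnmt3b* stood at 6.83 ± 1.51 and 9.51 ± 0.820 in D6PGCLCs. These values divide by the length of all annotated exons of a gene, which exceeds its longest transcript by the largest ratio for *Uhrf2* (8590 against 3536 bases). It was 16870 against 9179 bases for *Tet2* and 16642 against 9685 for *Dnmt3a*.

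Likeness of pattern was described by Pearson's r of log2(CPM + 1) over the 15 samples, among 11391 genes with a mean of at least 100 counts. The samples form 5 groups of replicates, so r follows mainly the group means. The genes most like *Dnmt3a* were *Pou3f1* (r = 0.989), *Zic5* (0.986) and *Pcdh1* (0.985), and those most like *Dnmt3b* were *Spop* (0.992), *Gap43* (0.988) and *Gemin5* (0.988). *Pou3f1*, a POU factor of the formative epiblast, had 184 ± 13.2 CPM in EpiLCs and at most 6.95 ± 2.43 in the other groups (SD, n = 3). For *Dnmt3l* the first 3 were *Pacsin3* (0.959), *Dok2* (0.955) and *Zic2* (0.950), and for *Tet3* they were *Sdc2* (0.961), *Adgra3* (0.955) and *Tenm4* (0.950). *Uhrf1* was most like *Nin* (0.986), *Stt3a* (0.984) and *Dtx1* (0.981), and *Uhrf2* like *Klhl24* (0.987), *Slc45a4* (0.984) and *Btbd11* (0.983). *Tet2* was most like *Trim16* (0.970), *Tbc1d24* (0.966) and *Zfp42* (0.964), a marker of naive cells, and *Tdg* like *Knop1* (0.982), *Wdr3* (0.980) and *Eif4g2* (0.979). *Dnmt1* (*Cdk5rap2* 0.930, *Mrtfb* 0.925) and *Tet1* (*Setd5* 0.949, *Npat* 0.918, *Prkdc* 0.902) had looser matches. Among the members themselves r was 0.953 for *Dnmt3b* with *Tdg*, 0.919 for *Dnmt3a* with *Dnmt3b* and -0.916 for *Uhrf1* with *Uhrf2*. For *Tet2* it was -0.801 with *Dnmt3a*, -0.569 with *Dnmt3b* and -0.542 with *Dnmt3l*.

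Few reads were assigned to copies of the members. *Dnmt3c*, the rodent paralog of *Dnmt3b*, had 0 to 24 counts per sample, and the processed pseudogenes *Dnmt3a-ps1* and *Dnmt3l-ps1* had none. *Tdg-ps* had 0 to 9 counts, and the antisense genes *Dnmt3aos*, *Dnmt3bos* and *Gm42567* (opposite *Tet2*) at most 13. How reads that match several genes were counted is not given in the sources used here, so these counts do not show how many reads of copies went to the members.

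Partners of maintenance were read from a list of 8 genes (*Pcna*, *Hells*, *Cdca7*, *Cdca7l*, *Usp7*, *Dppa3*, *Pclaf* and *Lig1*). From ESCs to EpiLCs 6 rose and 1 fell (26.3% and 26.2% of all genes tested), with a median of 0.57. From EpiLCs to D2PGCLCs 7 fell and 1 rose (26.0% and 27.2% of all genes), with a median of -0.40 (0.00335 over all genes). The gene that rose was *Dppa3*, whose product is known to keep UHRF1 off chromatin and whose reporter defined the sort, from 85.2 ± 13.6 CPM in EpiLCs to 452 ± 26.0 in D2PGCLCs (SD, n = 3). From D2PGCLCs to D6PGCLCs 4 fell and none rose (18.2% and 19.5% of all genes), also without D6PGCLC replicate 1.

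Because *Uhrf1* and *Dnmt1* are known to follow the cell cycle, 14 proliferation genes were set beside them. From ESCs to EpiLCs, where *Uhrf1* fell, 9 of the 14 rose and none fell (median 0.24), against 26.3% and 26.2% of all genes. From EpiLCs to D2PGCLCs 1 rose and 6 fell (27.2% and 26.0% of all genes), with a median of -0.14 beside -0.92 for *Uhrf1*. From ESCs to D6PGCLCs 2 rose and 6 fell (27.7% and 26.0% of all genes), with a median of -0.03 beside -1.41 for *Uhrf1*, and 1 rose and 6 fell without D6PGCLC replicate 1. In the same order *Dnmt1* changed by -0.05, 0.31 and 0.12, and only the change of 0.31 was called. None of the 14 changed beyond 2-fold in any of the 6 comparisons, and their part in the *Uhrf1* and *Dnmt1* values was not tested.

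No methylation data were used here. A list of 12 germ cell genes known to be silenced by promoter methylation was set beside the members. From ESCs to D6PGCLCs 11 rose and none fell, 10 of them beyond 2-fold, with a median of 3.97, and the same counts held without D6PGCLC replicate 1. Of all genes tested 27.7% rose, 26.0% fell and 26.2% were called beyond 2-fold. *Dazl*, an RNA-binding protein of germ cells, had 11.1 ± 1.67 CPM in ESCs, 6.37 ± 0.138 in EpiLCs, and 39.1 ± 9.54, 186 ± 42.9 and 428 ± 58.9 on days 2, 4 and 6 (SD, n = 3). *Asz1*, a piRNA pathway protein, had 0.858 ± 0.157, 1.29 ± 0.632, 1.63 ± 1.09, 9.54 ± 1.85 and 19.9 ± 5.68 CPM in the same order. From ESCs to EpiLCs, where the de novo enzymes rose, 7 of the 12 also rose and 2 fell (26.3% and 26.2% of all genes), *Mael* from 0.367 ± 0.118 to 9.55 ± 0.733 CPM and *Slc25a31* from 0.250 ± 0.198 to 1.87 ± 0.573 CPM among those that rose. Over the step from EpiLCs to D2PGCLCs, where the de novo enzymes fell, 3 of the 12 rose and 4 fell. All genes tested rose in 27.2% and fell in 26.0% there, and the median over the 12 was -0.08. From D2PGCLCs to D4PGCLCs 11 rose and none fell, against 7.26% and 4.60% of all genes. That count was 4 without D2PGCLC replicate 1 or D4PGCLC replicate 3, 7 without D2PGCLC replicate 2 or D4PGCLC replicate 1, and 6 with only the 2 groups compared. The sort for the reporter of *Dppa3*, itself a germ cell gene, lay between EpiLCs and PGCLCs, and its part in these counts was not tested.

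**Figure D5:**
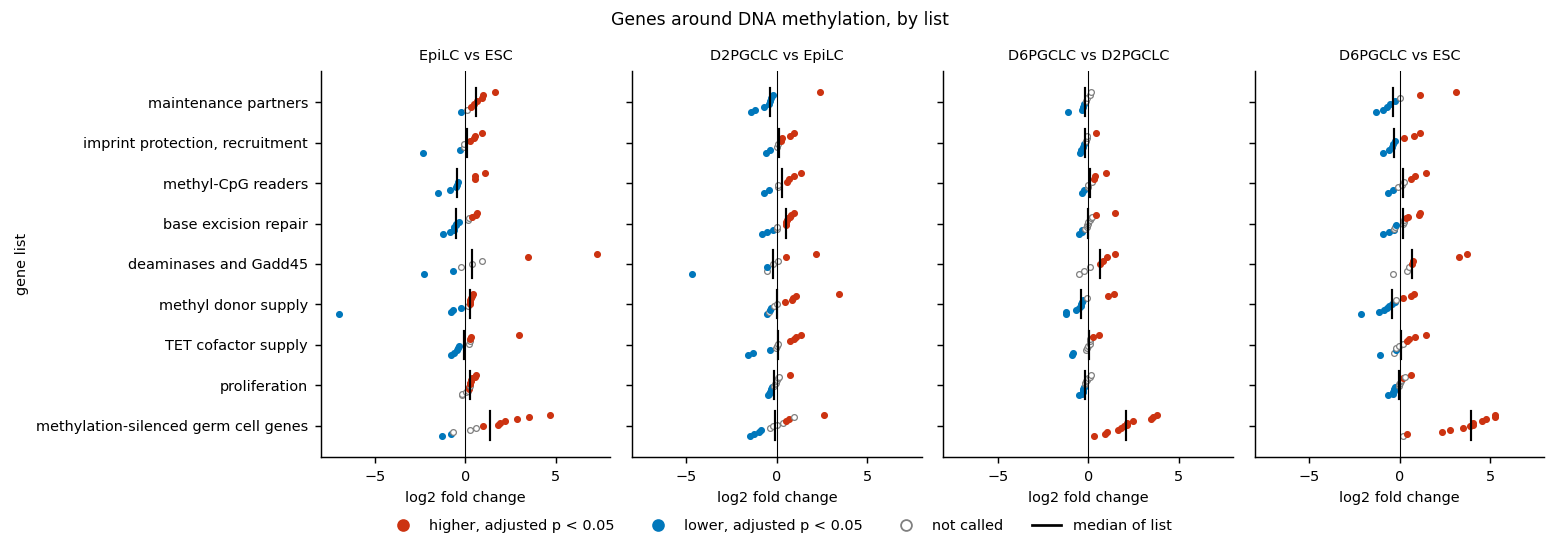
Fitted log2 fold change (x axes, first group named minus second) of the genes in 9 lists around DNA methylation; each point is a gene, red and blue mark higher and lower at adjusted p under 0.05, open grey not called, and black bars the list's median. The 12 germ cell genes have a median of 2.06 from D2PGCLCs to D6PGCLCs and 3.97 from ESCs to D6PGCLCs, and the medians of the other 8 lists lie between -0.41 and 0.69 there.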

How the data were processed

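RNA-seq of 15 mouse samples (3 per group) was deposited by the authors as raw read counts per gene. The submitters' processing notes name Trim Galore, FastQC, STAR and the mm10 genome. The counting tool, annotation release and use of strand are not given in the sources used here, and the library kit was directional. Gene symbols, positions and exon lengths came from GENCODE M21 (55536 of 55536 identifiers matched), and promoter windows, present for all 10 genes, from RefSeq on GRCm38.p6. Genes with at least 10 counts in enough samples (filterByExpr, 18090 genes) were TMM-normalized and fitted over all 5 groups with the quasi-likelihood test of edgeR 4.0.16 in R 4.3.3, with Benjamini-Hochberg adjustment, and the procedure was tested on simulated data with 200 changed genes. DESeq2 1.42.0, its size factors, no filter, only the 2 groups compared, the replicate number as a block and leaving out each sample were the alternatives. Totals of 22555021 to 42725681 counts put 3 counts at 0.0661 to 0.132 CPM. Levels per length divided CPM by the union of exons.

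The 10 members were all named. Of the 10 lists of related genes, the genes past an adjusted p of 0.05 whose log2 fold change exceeded 2 in size in EpiLCs against ESCs, D2PGCLCs against EpiLCs or D6PGCLCs against ESCs were named, at most 4 a list, and others named were chosen after their values were seen. The 3 most similar genes of each member were named by Pearson's r, of which 1 is not reported here. Members and lists were chosen with earlier results of these data known. No source used here says that replicates came from separate cultures, so p-values measure the spread between these samples. Replicates differed by more than counting noise in every group (chi-square per gene 8.82 to 44.6).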

Additional observations from a re-analysis of the deposited data

How the results depend on the processing

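Of 660 refits of single members, 577 kept direction and call, 39 lost a call, 16 gained one and 28 turned direction, none of the last from a called value. With a 2-fold minimum the called members were 4 from ESCs to EpiLCs, 5 from EpiLCs to D2PGCLCs, 0 from D2PGCLCs to D4PGCLCs, 0 from D4PGCLCs to D6PGCLCs, 0 from D2PGCLCs to D6PGCLCs and 4 from ESCs to D6PGCLCs. From D2PGCLCs to D4PGCLCs 4 were called with no filter and 0 with only the 2 groups compared, and 0 to 4 when 1 sample was left out (0 without D2PGCLC replicate 1, D2PGCLC replicate 3 or D4PGCLC replicate 3, and 4 without D4PGCLC replicate 2). Leaving out 1 sample gave 1 to 2 from D4PGCLCs to D6PGCLCs (2 without D4PGCLC replicate 2) and 1 to 4 from D2PGCLCs to D6PGCLCs. The main fit did not pair samples by replicate number. The mean r of deviations was 0.0703 over 30 pairs with the same number (-0.184 to 0.358). Over 60 pairs with different numbers it was -0.0352 (-0.401 to 0.259), and 8 of 15 samples were closest to their own number. The replicate block gave 7, 10, 3, 1, 6 and 7 calls in the order above and added *Dnmt3l* from D2PGCLCs to D4PGCLCs and *Tet1* from D2PGCLCs to D6PGCLCs. Signs turned near 0: *Tet1* from ESCs to EpiLCs was 0.0342 in DESeq2, 0.0351 with its size factors, 0.000691 with the replicate block, 0.0115 with 2 groups and -0.0826 to 0.104 with 1 sample left out, *Dnmt1* from D4PGCLCs to D6PGCLCs was -0.00475 with no filter, and *Uhrf1* from D2PGCLCs to D6PGCLCs was 0.00418, 0.00371 and 0.00918 in DESeq2, with its size factors and with 2 groups. With 1 sample left out the ranges were -0.0834 to 0.00168 for *Dnmt1* from ESCs to EpiLCs, -0.0156 to 0.0497 for *Tet1* from ESCs to D6PGCLCs, -0.185 to 0.0158 for *Dnmt3b* and -0.0777 to 0.0574 for *Uhrf1* from D2PGCLCs to D6PGCLCs, and, from D4PGCLCs to D6PGCLCs, -0.188 to 0.141 for *Tet1*, -0.602 to 0.219 for *Dnmt3l*, -0.0893 to 0.0479 for *Dnmt1*, -0.00128 to 0.373 for *Dnmt3b*, -0.159 to 0.193 for *Tet2* and -0.0106 to 0.111 for *Tdg*. By counts not divided by length, *Dnmt3a* and *Dnmt3b* made up 33.9%, 86.8%, 20.8%, 23.2% and 26.5% of the catalytic methyltransferase sum in ESCs, EpiLCs and on days 2, 4 and 6, and *Tet1* made up 65.7%, 89.1% and 81.6% of the TET sum in ESCs, EpiLCs and D2PGCLCs. By the longest transcript *Tet1* made up 55.5%, 84.8%, 74.1%, 76.5% and 74.3%. Of 660 list counts, 102 moved by more than 1.5 times. The members had at least 213 counts per sample, and the part of depth in their calls was not tested.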

Other observations

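Other lists around DNA methylation are given beside the shares of all genes tested, of which 26.3% rose and 26.2% fell from ESCs to EpiLCs, 27.2% and 26.0% from EpiLCs to D2PGCLCs, 19.5% and 18.2% from D2PGCLCs to D6PGCLCs and 27.7% and 26.0% from ESCs to D6PGCLCs. Among 8 genes of imprint protection and recruitment, 4 rose and 2 fell from ESCs to EpiLCs (median 0.11), 4 rose and 2 fell from EpiLCs to D2PGCLCs (median 0.15), and 3 rose and 5 fell from ESCs to D6PGCLCs (median -0.31; 3 and 4 without D6PGCLC replicate 1). *Zfp57*, the zinc finger protein that guards methylation at imprints, went from 393 ± 9.72 CPM in ESCs to 77.3 ± 10.9 in EpiLCs, and stood at 151 ± 11.1 on day 2 and 206 ± 10.6 on day 6 (SD, n = 3). Of 8 methyl-CpG readers, 3 rose and 5 fell into EpiLCs (median -0.45), 4 rose and 2 fell to D2PGCLCs (median 0.30), and 3 rose and 2 fell from ESCs to D6PGCLCs (median 0.17), also without that replicate. Of 13 base excision repair genes, which act after TET enzymes and TDG, 3 rose and 8 fell into EpiLCs (median -0.50), while 8 rose and 3 fell to D2PGCLCs (median 0.49). From ESCs to D6PGCLCs 4 of the 13 rose and 4 fell (median 0.17). Without D6PGCLC replicate 1, 5 rose and 3 fell, and without D6PGCLC replicate 3, 5 were called in all.

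Among 7 deaminase and *Gadd45* genes, 2 rose and 2 fell into EpiLCs (median 0.35), 2 rose and 2 fell to D2PGCLCs (median -0.23; 2 called in all without D2PGCLC replicate 3), and 4 rose and none fell from ESCs to D6PGCLCs (median 0.69), also without D6PGCLC replicate 1. *Gadd45g*, a stress-response gene proposed to act in active demethylation, went from 0.431 ± 0.209 CPM in ESCs to 71.0 ± 1.27 in EpiLCs and was at 2.77 ± 0.499 on day 2. *Gadd45a* had 7.02 ± 1.71 CPM in ESCs, 78.5 ± 5.81 in EpiLCs and 93.5 ± 10.7 on day 6, and *Gadd45b* had 37.5 ± 4.19, 7.79 ± 1.09 and 62.5 ± 2.27 CPM in the same order (SD, n = 3). Of 12 methyl donor genes, 11 were tested: 6 rose and 4 fell into EpiLCs (median 0.24), 5 rose and 3 fell to D2PGCLCs (median -0.01), 2 rose and 8 fell from D2PGCLCs to D6PGCLCs (median -0.40), and 3 rose and 7 fell from ESCs to D6PGCLCs (median -0.41). Without D6PGCLC replicate 1 the last 2 pairs of counts were 2 and 8 and 2 and 7. *Nnmt*, which consumes S-adenosylmethionine, had 203 to 314 counts in ESCs and 0 to 6 in EpiLCs. Of 10 genes supplying TET cofactors, 3 rose and 5 fell into EpiLCs (median -0.08), 4 rose and 3 fell to D2PGCLCs (median 0.05), and 4 rose and 2 fell from ESCs to D6PGCLCs (median 0.08; 4 and 1 without D6PGCLC replicate 1). *Slc23a1*, a vitamin C transporter, had 1.98 ± 0.336 CPM in ESCs, 15.5 ± 1.06 in EpiLCs and 5.13 ± 2.64 on day 2 (SD, n = 3). Of *Dnmt3c* and *Trdmt1*, an RNA methyltransferase of the DNMT family, only the second was tested, and it rose by 0.50 to D2PGCLCs and by 0.48 from ESCs to D6PGCLCs. The medians over all genes tested lay between -0.013 and 0.018 in the 6 comparisons.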
